A study of Mus musculus with 23 samples.

Results

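The genes described here were 6 handlers of zinc and related metals, namely the metallothioneins Mt1 and Mt2, the importers Slc39a14 (ZIP14) and Slc39a4 (ZIP4) and the exporters Slc30a1 (ZnT1) and Slc30a10 (ZnT10). They were taken by gene symbol, with earlier results of these data known, and all 6 were found among the 48895 genes of the count table. The libraries were poly(A) RNA of whole tissue from male BALB/c mice. The 5 control livers came from sham-operated mice, which carried no tumor. The 9 pre-metastatic livers and the 9 primary tumors came from the same 9 mice, each of which had received CT26 cells, a mouse colon carcinoma line, in the wall of the cecum. The model is therefore a single transplanted line in a host of its own strain. Control mice are named C and tumor-bearing mice M, followed by their number in the study. Levels are given as RPKM, read counts divided by gene length and by the library total, and differences as log2 fold changes with their standard error from a model fitted to the counts of all genes.

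Metallothioneins are small cysteine-rich proteins that bind zinc and copper, and in the liver their messages are known to respond to zinc, glucocorticoids and inflammatory cytokines. The zinc-sensing factor MTF1 binds metal response elements in the promoters of Mt1, Mt2 and Slc30a1. ZIP proteins of the Slc39 family carry metal into the cytosol and ZnT proteins of the Slc30 family carry it out. In the acute-phase response, interleukin-6 is known to raise Slc39a14 in hepatocytes, and serum zinc falls as the liver takes it up. Slc39a4 is best known as the zinc importer of the intestine, and Slc30a10 as an exporter of manganese in liver and intestine.

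Mt2 and Mt1 lie side by side on the plus strand of chromosome 8 in mm10, at chr8:94172618-94173567 and chr8:94179084-94180327, with 5516 bases between them. The upstream bases of these neighbors, whose levels moved together from mouse to mouse, and of Slc30a10, for which no relation with them passed a test, are shown from RefSeq on GRCm38.p6, the assembly of mm10. Capitals mark the core of the metal response element, searched as TGCACNC or TGCGCNC on both strands. The windows are chr8:94178839-94179081, chr8:94172368-94172617 and chr1:185454598-185454847, all on the plus strand and ending before the first annotated transcribed base.
Mt1: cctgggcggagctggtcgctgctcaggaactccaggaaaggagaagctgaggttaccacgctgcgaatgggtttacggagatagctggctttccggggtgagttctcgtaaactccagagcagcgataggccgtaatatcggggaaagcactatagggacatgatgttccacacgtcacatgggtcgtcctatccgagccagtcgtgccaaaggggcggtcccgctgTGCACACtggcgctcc
Mt2: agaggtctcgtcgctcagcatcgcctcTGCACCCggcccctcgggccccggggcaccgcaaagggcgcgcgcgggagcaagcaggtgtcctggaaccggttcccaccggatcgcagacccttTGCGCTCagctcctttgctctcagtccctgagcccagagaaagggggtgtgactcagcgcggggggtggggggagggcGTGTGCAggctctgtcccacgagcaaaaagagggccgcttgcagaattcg
Slc30a10: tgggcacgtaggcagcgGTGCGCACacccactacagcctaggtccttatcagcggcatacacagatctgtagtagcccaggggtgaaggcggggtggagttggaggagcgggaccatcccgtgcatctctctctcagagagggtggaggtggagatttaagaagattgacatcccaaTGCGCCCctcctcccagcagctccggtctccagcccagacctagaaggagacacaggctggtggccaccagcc
The 250 bases before the RefSeq start held 1 match in Mt1, 3 in Mt2 and 1 in Slc30a1. In Slc30a10 there were 3 matches, of which 2 overlap on opposite strands. At least 1 match was present in 21.4% of all 32851 RefSeq promoter windows of that length, and at least 3 in 1.26%. The match nearest the start began at base -23 in Mt1, -50 in Mt2, -43 in Slc30a1 and -73 in Slc30a10. The match of Slc30a1 lies within the gene as placed in the count table (from chr1:191906689), which begins upstream of the RefSeq start. Bases farther upstream or past the RefSeq start were not searched, so these counts do not rank the genes by their metal response elements. Neither the STAT motif TTCNNNGAA (7.02% of windows) nor the E-box CACGTG (6.02% of windows) was found in any of the 4 windows. Slc39a14 and Slc39a4 are named only.

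The other members lie at chr14:70303467-70351424 on the minus strand (Slc39a14), chr15:76612383-76617379 on the minus strand (Slc39a4), chr1:191906689-191913247 on the plus strand (Slc30a1) and chr1:185454848-185468762 on the plus strand (Slc30a10). All are protein-coding genes, and counts were taken per gene. The library kit does not mark strand, so reads of overlapping genes on the other strand cannot be told apart. These are 1700034H15Rik, which shares 839 bases with Slc30a1, and Gm2061, which shares 721 bases with Slc30a10. In GENCODE M21 the antisense gene Gm45774 also shares a stretch of 212 bases with Mt2. In the livers, 1700034H15Rik stood at 0.986 to 1.88 RPKM and Gm2061 at 0.887 to 5.51 RPKM.

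Between 44587556 and 79773163 reads were counted per library. The 8 hepatocyte markers, among them albumin, summed to 48830 to 58410 RPKM in control livers, 33240 to 67320 in pre-metastatic livers and 6.50 to 273 in tumors, where the highest values were those of M12 and M10 (147). The 10 intestinal epithelial markers summed to a median of 62.3 RPKM in tumors (at most 116), most of it Krt20 (median 59.9), and 5 of the 10 were under 1 RPKM in every tumor. Tumor M6 held 89.6 RPKM of 8 pancreatic acinar markers, against 0.192 to 0.787 in the other tumors. The 8 neutrophil markers summed to 6.94 to 141 RPKM in pre-metastatic livers (median 39.1) and 6.29 to 22.3 in control livers (median 9.20). The 8 macrophage markers summed to 215 to 615 and 128 to 233 RPKM, and the 5 erythroid markers to 556 to 1197 and 215 to 484 RPKM, and the part of these markers in the liver results was not tested. The 7 fibroblast markers summed to 50.4 to 171 RPKM in pre-metastatic livers, 72.0 to 111 in control livers and 641 to 1058 in tumors. Of these, the collagens Col1a1 (2.71 ± 0.39 on the log2 scale), Col1a2 (2.21 ± 0.33) and Col3a1 (3.01 ± 0.35) rose in pre-metastatic against control livers (edgeR, adjusted p under 0.05) and the other 4 did not pass. The part of fibroblasts in the liver and tumor results was not tested. In whole tissue, fewer cells of a type and less RNA per cell cannot be told apart.

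**Figure D1:**
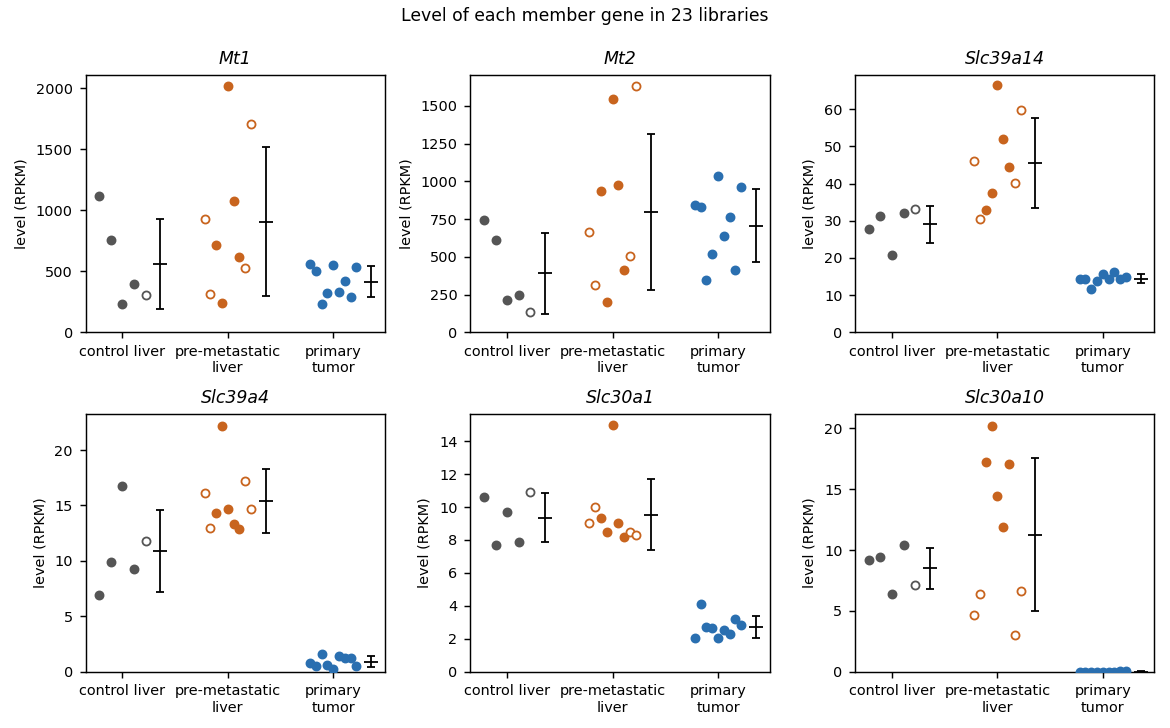
Level of each member (RPKM, linear axes from 0) in every control liver, pre-metastatic liver and primary tumor; points are libraries, open points are livers with a high clock index, and bars are mean ± SD (n = 5, 9 and 9). Mt1 and Mt2 overlapped between all groups, whereas the other 4 members were lower in each tumor than in each liver. The share of all genes without overlap was not counted.

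Pre-metastatic livers were compared with control livers to see how metal handling differed in the liver of a tumor-bearing mouse before any metastasis. Both zinc importers were higher: Slc39a14 by 0.76 ± 0.22 and Slc39a4 by 0.58 ± 0.16 on the log2 scale (edgeR quasi-likelihood test, adjusted p = 0.018 and 0.013). Mt1 and Mt2 spread widely in both groups, and their higher means in pre-metastatic livers did not pass the test. The exporter Slc30a1 stood at nearly equal means, and Slc30a10 lay on both sides of the controls. In all, 2 of 6 members rose and 0 fell, where 17.7% of the 16987 genes tested rose and 13.3% fell. The higher share of all calls was 57.1% with TMM, the scaling used here, which sets libraries level over most genes, and 46.0% with scaling by total counts, where the same number of members, 2, rose.

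Mt1 encodes one of the major hepatic metallothioneins. In control livers its level was 1118 RPKM in C1, 758 in C4, 236 in C5, 400 in C6 and 307 in C7, with a mean of 564 ± 369 (SD, n = 5). In the 9 pre-metastatic livers the lowest was 239 RPKM in M5, the median 717 in M4 and the highest 2023 in M6, with a mean of 906 ± 610 (SD, n = 9). Only M12 (1708) and M6 exceeded the highest control, and M5 was level with the lowest. The highest pre-metastatic liver held 8.46 times the lowest, and the highest control 4.74 times the lowest. The log2 difference was 0.81 ± 0.55 (edgeR adjusted p = 0.28), and 1.27 (adjusted p = 0.12) without C1, the highest control.

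Mt2, the second hepatic metallothionein, followed the same order in the control livers except for its lowest value. It was at 745 RPKM in C1, 610 in C4, 213 in C5, 248 in C6 and 137 in C7, a mean of 390 ± 269 (SD, n = 5). Pre-metastatic livers ran from 203 RPKM in M5 through a median of 666 in M1 to 1631 in M12, a mean of 799 ± 517 (SD, n = 9). The groups overlapped, with 5 of 9 pre-metastatic livers below C1. The log2 difference was 1.15 ± 0.56 (edgeR adjusted p = 0.13). Together, Mt1 and Mt2 took 0.0297% to 0.126% of all counts in control livers and 0.0295% to 0.240% in pre-metastatic livers.

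Slc39a14 carries zinc, manganese and free iron into hepatocytes. Its level in control livers was 27.7 RPKM in C1, 31.4 in C4, 20.9 in C5, 32.2 in C6 and 33.2 in C7. In pre-metastatic livers the lowest was 30.5 RPKM in M2, the median 44.6 in M8 and the highest 66.6 in M6. Of the 9, only M2 and M4 (33.0) lay within the control range, so the groups overlapped at their edges. Means were 29.0 ± 5.02 and 45.5 ± 12.1 RPKM (SD, n = 5 and 9). Without control C5, the lowest of the group, the log2 difference was 0.66 and its adjusted p 0.053.

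Slc39a4, the importer known from the gut, was present in both groups of livers. Its level in control livers was 6.95 RPKM in C1, 9.87 in C4, 16.8 in C5, 9.25 in C6 and 11.8 in C7. In pre-metastatic livers it ran from 12.9 RPKM in M8 through a median of 14.7 in M12 to 22.2 in M5. All 9 were above 4 of the 5 controls, and C5 lay among them. C5 and M5, each the highest of its group for Slc39a4, were each the lowest of that group for Mt1. Means were 10.9 ± 3.69 and 15.4 ± 2.92 RPKM (SD, n = 5 and 9).

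Slc30a1, the zinc exporter of the plasma membrane, was at 9.36 ± 1.5 RPKM in control livers and 9.54 ± 2.13 in pre-metastatic livers (SD, n = 5 and 9). Controls lay between 7.69 in C4 and 10.9 in C7, and pre-metastatic livers between 8.15 in M8 and 15.01 in M6. M6 stood alone, since the next highest, M2, was at 10.03 RPKM. The log2 difference was 0.12 ± 0.17 (edgeR adjusted p = 0.63), and -0.017 without M6.

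Slc30a10, the manganese exporter, had the widest spread of the transporters among pre-metastatic livers. Controls were at 9.17 RPKM in C1, 9.39 in C4, 6.37 in C5, 10.4 in C6 and 7.12 in C7. Pre-metastatic livers were at 4.66 in M1, 6.42 in M2, 17.2 in M4, 20.2 in M5, 14.4 in M6, 11.9 in M7, 17.1 in M8, 3.01 in M10 and 6.61 in M12. They thus lay on both sides of the controls, with 5 above, M1 and M10 below, and M2 and M12 near the lowest control. The log2 difference over all livers was 0.47 ± 0.38 (edgeR adjusted p = 0.36).

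The 5 pre-metastatic livers above the controls were those with a low clock index. This index, in SD units over the 14 livers, sets 2 groups of circadian clock genes that peak at opposite times of day against each other: Arntl, Clock and Npas2 count negatively, and Ciart, Dbp and Per3 positively. It was low (-2.35 to -0.102) in C1, C4, C5, C6, M4, M5, M6, M7 and M8 and high (0.981 to 2.92) in C7, M1, M2, M10 and M12, and the hour of tissue collection is not given in the sources used here. Among livers with a low index, Slc30a10 was at 16.2 ± 3.15 RPKM in 5 pre-metastatic and 8.84 ± 1.74 in 4 control livers, with no overlap. Among those with a high index it was at 5.17 ± 1.69 RPKM in 4 pre-metastatic livers and 7.12 in the single control, so no test was possible there. In the low set alone, the log2 difference was 0.92 (edgeR adjusted p = 0.0024), where 14.7% of 16158 genes rose and 10.9% fell. How many of all genes also showed no overlap in this set was not counted.

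With the index as a covariate over all 14 livers, Slc30a10 was 0.73 higher on the log2 scale in pre-metastatic livers (edgeR adjusted p = 0.011). That makes 3 members called higher in this fit, where 16.9% of 16987 genes rose and 13.2% fell. The fit assumes the same difference at every index. At a high index, however, the pre-metastatic livers (at most 6.61 RPKM) all lay below the single control (7.12 RPKM). Slc30a10 itself fell by 0.38 ± 0.05 on the log2 scale for each unit of the index (adjusted p = 0.0013), a coefficient that passed in 2.93% of genes. None of the other 5 members passed for the index, with adjusted p from 0.92 in Mt2 to 0.99 in Slc30a1. Slc39a14 and Slc39a4 still passed with the covariate (adjusted p = 0.031 and 0.024). In the low set alone, Slc39a14 passed (0.83, adjusted p = 0.037) and Slc39a4 did not (0.59, adjusted p = 0.065).

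**Figure D2:**
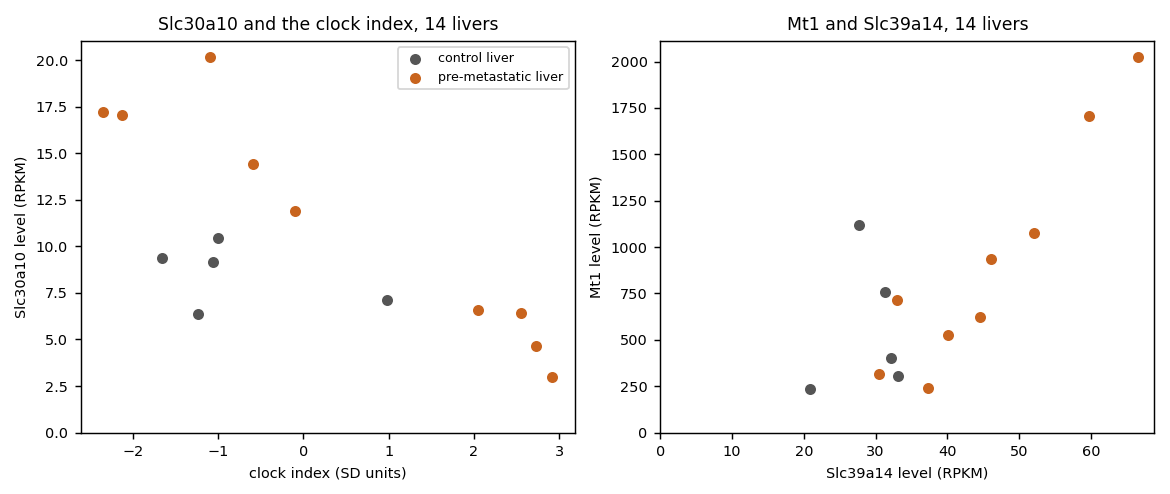
Left, Slc30a10 level (RPKM) against the clock index (SD units) in 14 livers; right, Mt1 against Slc39a14 level (both RPKM) in the same livers; points are livers, colored by group. Slc30a10 ran from 20.2 RPKM in M5 down to 3.01 in M10, the liver with the highest index, and the livers with most Slc39a14, M6 and M12, also held the most Mt1.

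Within the 9 pre-metastatic livers, Mt1 and Mt2 varied together, and Slc39a14 with Mt1. Pearson's r of log2(RPKM + 1) was 0.959 and Spearman's rho 0.950 for Mt1 and Mt2 (exact permutation test, p = 0.000149 and 0.000353, adjusted p = 0.0022 and 0.0053 over 30 relations). Without the 2 mice farthest from the median of Mt1, r was 0.919. For Mt1 and Slc39a14, r was 0.860 and rho 0.867 (exact permutation, p = 0.0038 and 0.0045, adjusted p = 0.038 and 0.045), and r was 0.875 without those 2 mice. M6 and M12 were the highest and M7 the third for each of Mt1 and Slc39a14. For Mt2 and Slc39a14, r was 0.725 and rho 0.767 (exact permutation, p = 0.029 and 0.021), which did not pass after adjustment (0.11 and 0.11). Centering the values within the sets of low and high clock index left r at 0.959, 0.863 and 0.728. Slc39a4, Slc30a1 and Slc30a10 gave no relation that passed with any other member in these livers.

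Over all 14 livers, the gene most like Mt1 among the 16987 tested was Mt2 (r = 0.942). Serpina3n (0.899), Serpina1d (0.864), Fetub (0.855) and Pde6h (0.848) followed, of which Serpina3n is an acute-phase protease inhibitor and Pde6h stood at 1.53 RPKM at most. Mt2 was followed most closely, after Mt1, by Fetub (0.893), Rp9 (0.839) and 2 unnamed genes, ENSMUSG00000111771.1 (0.824) and ENSMUSG00000108822.1 (0.824). For Slc39a14 the closest were Rrbp1 (0.950), a ribosome-binding protein of the endoplasmic reticulum, Fndc3b (0.944), Ifi27l2b (0.936), Lrrn4cl (0.922) and A2m (0.907), an acute-phase protein that did not exceed 2.53 RPKM. The 2 groups are pooled in these coefficients. The 9 pre-metastatic livers are among the 14 by which these genes were ranked, so a high r within them follows in part from the choice. In those 9 alone, r with Mt1 was 0.893 for Serpina3n and 0.943 for Fetub. With Mt2 it was 0.844 for Rp9 and 0.769 for ENSMUSG00000108822.1, and with Slc39a14 it was 0.960 for Rrbp1 and 0.942 for A2m.

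Of 12 other ZIP importers, 11 were tested between the livers, and Slc39a1 (0.56 ± 0.10) and Slc39a11 (0.76 ± 0.08) rose, with 0 falling, where 17.7% of all genes rose and 13.3% fell. Slc39a8 (ZIP8), the closest relative of Slc39a14, differed by -0.00 ± 0.15 (edgeR adjusted p = 0.99), and Slc39a5 by 0.10 ± 0.34 (adjusted p = 0.84). Of 8 other ZnT exporters, 6 were tested, and Slc30a7 (0.30 ± 0.11) rose and Slc30a6 (-0.27 ± 0.09) fell. The zinc sensor Mtf1 differed by -0.26 ± 0.10 (adjusted p = 0.065). Mt3 and Mt4 were too low to test, with at most 10 and 0 counts in any liver. With scaling by total counts Slc30a7 did not pass, and Slc39a13, Slc30a3 and Mtf1 passed as lower. The median log2 difference was 0.10 for the ZIP list and -0.02 for the ZnT list, against 0.01 over all genes tested.

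**Figure D3:**
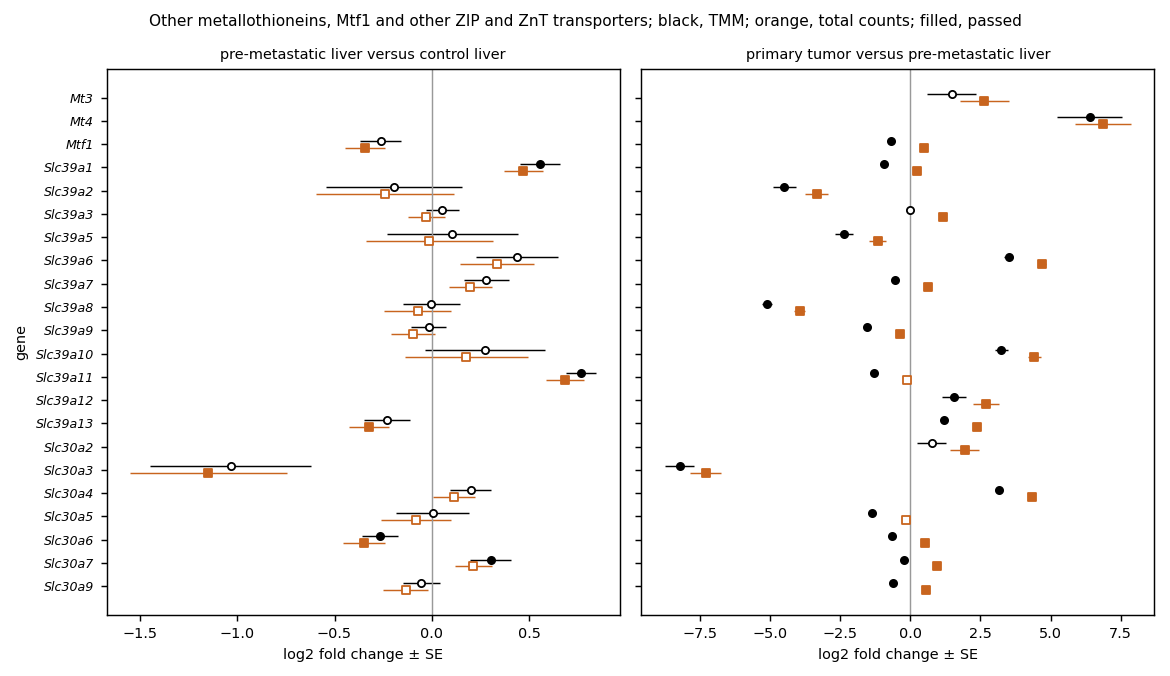
Log2 fold change ± SE of other metallothioneins, Mtf1 and other ZIP and ZnT genes in pre-metastatic against control livers and in tumors against pre-metastatic livers, with TMM (black) and total-count (orange) scaling; filled symbols passed at adjusted p 0.05. In the livers only Slc39a1, Slc39a11, Slc30a6 and Slc30a7 passed with TMM, and in tumors Slc39a6, Slc39a10 and Slc30a4 stood above the livers with either scaling; the value of Mt4 depends on the fit, since all livers were at 0.

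Among other metal handlers, 3 of 11 rose and 1 fell in pre-metastatic livers, a share near that of all genes tested (17.7% rose and 13.3% fell). The phagosomal metal transporter Slc11a1 (0.98 ± 0.20), the iron importer Slc11a2 (0.59 ± 0.19) and the copper importer Slc31a1 (0.44 ± 0.09) rose, and the copper chaperone Atox1 fell by 0.41 ± 0.08. Slc11a1 is a gene of macrophages and neutrophils, whose markers were also higher in these livers as given above. Of 18 acute-phase genes of the interleukin-6 pathway, 17 rose, led by Orm2 (5.28 ± 0.67), Saa2 (5.28 ± 1.06) and Saa1 (3.90 ± 0.87), with a list median of 1.61. Slc39a14, at 0.76, lay below that median. Of 10 glucocorticoid-responsive genes, Nr3c1, the receptor itself, rose (0.56 ± 0.14), and Cdkn1a (-2.38 ± 0.64), Tat (-1.74 ± 0.26) and Zbtb16 (-1.25 ± 0.46) fell. The other 6 did not pass. With the clock index as a covariate, 1 of the 10 rose and 2 fell. Cdkn1a itself changed by -0.76 ± 0.11 for each unit of the index (edgeR adjusted p = 0.0011). Of 7 tested genes of the oxidative stress list, Osgin1 rose (1.25 ± 0.41) and Srxn1 (-1.18 ± 0.11), Nqo1 (-1.15 ± 0.19) and Txnrd1 (-0.34 ± 0.10) fell. These were edgeR tests at adjusted p under 0.05, and Tat is also among the hepatocyte markers.

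Primary tumors were set beside the livers of the same mice to show which part of hepatic metal handling the tumor tissue also holds. All 6 members were lower in tumors than in pre-metastatic livers with TMM scaling, where 39.5% of 19749 genes fell and 43.8% rose. The size ran from a log2 change of -1.43 for Mt2 to -11.16 for Slc30a10. Metallothioneins were shared between the tissues at means of 416 RPKM or more, whereas Slc39a4 and Slc30a10 were close to absent from tumors. Tumors differ from livers in most genes, and the result for Mt1 and Mt2 depended on how libraries were scaled.

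Mt1 in tumors ran from 232 RPKM in M4 through a median of 418 in M8 to 560 in M1, with a mean of 416 ± 127 (SD, n = 9). Tumor and liver levels overlapped, and the tumor was lower than the liver in 7 of 9 mice. Mt2 ran from 348 RPKM in M4 through 767 in M8 to 1035 in M6, with a mean of 707 ± 241 (SD, n = 9), and was lower in the tumor in 5 of 9 mice. With TMM, the log2 changes were -2.37 ± 0.39 for Mt1 and -1.43 ± 0.38 for Mt2 (edgeR adjusted p = 1.2e-05 and 0.0018). With the mouse as a block in a paired fit they were -2.08 and -1.16 (adjusted p = 8.8e-05 and 0.0068). With scaling by total counts, they were -1.12 (adjusted p = 0.0045) and -0.18 (adjusted p = 0.63), so the fall of Mt2 was lost. That scaling moved the median of all genes from 0.13 to 1.31 and the share of calls that were higher from 52.6% to 76.1%.

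The transporters did not overlap between tumors and livers. Between tumors and pre-metastatic livers 83.3% of 19749 genes were called, and the share of all genes without overlap was not counted. Slc39a14 was at 11.7 to 16.1 RPKM in tumors, the narrowest spread of any member (14.4 ± 1.23, SD, n = 9), and at -2.87 ± 0.18 on the log2 scale against pre-metastatic livers. Slc39a4 was at 0.247 RPKM in M6 to 1.62 in M4 (0.911 ± 0.469, n = 9), and at -5.25 ± 0.30. Slc30a1 was at 2.02 RPKM in M1 to 4.14 in M2 (2.71 ± 0.655, n = 9), and at -3.01 ± 0.16. All 9 tumors lay below all 9 livers for each of them. The adjusted p of edgeR was 6e-12 or below for each, and with total counts the log2 changes were -1.66, -4.07 and -1.81, all of which passed.

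Slc30a10 had 32 counts in all 9 tumors together, against 1024 or more in each liver. There were 11 counts in M10, 10 in M12, 5 in M2, 4 in M7, 1 in M1, 1 in M6 and 0 in M4, M5 and M8, where a count of 0 allows up to 0.00889 to 0.00982 RPKM for counting error alone. The mean of 0.0101 ± 0.0120 RPKM was 0.000894 of the mean in pre-metastatic livers. M10 and M12, with the most counts, also held the most hepatocyte marker RNA (147 and 273 RPKM), followed by M2 (29.6), and the part of that RNA in these counts was not tested. The log2 change was -11.16 ± 0.58 (edgeR adjusted p = 5.4e-13). Tumors M6, M10 and M12 were left out in an alternative chosen after the data were seen. Since M10 and M12 held the most counts, the larger fall of Slc30a10 there (-12.17) followed from that choice. In that fit all 6 members fell again, where 39.35% of 19114 genes fell and 42.01% rose.

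Against control livers, which share these tumors with the comparison above, 5 of 6 members were lower in tumors, where 38.1% of 19320 genes fell and 44.2% rose. Log2 changes were -1.55 ± 0.34 for Mt1 (edgeR adjusted p = 0.0005), -2.09 ± 0.10 for Slc39a14, -4.65 ± 0.35 for Slc39a4, -2.87 ± 0.15 for Slc30a1 and -10.68 ± 0.41 for Slc30a10. Mt2 differed by -0.26 ± 0.38 (adjusted p = 0.53). With total counts Mt1 no longer passed (-0.44, adjusted p = 0.21) and Mt2 was higher in tumors (0.86, adjusted p = 0.045). That scaling moved the median of all genes from 0.18 to 1.26 and the higher share of calls from 53.7% to 75.7%. The direction for Mt2 against control livers is thus set by the scaling, and also turned (0.14, adjusted p = 0.73) without control C1.

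**Figure D4:**
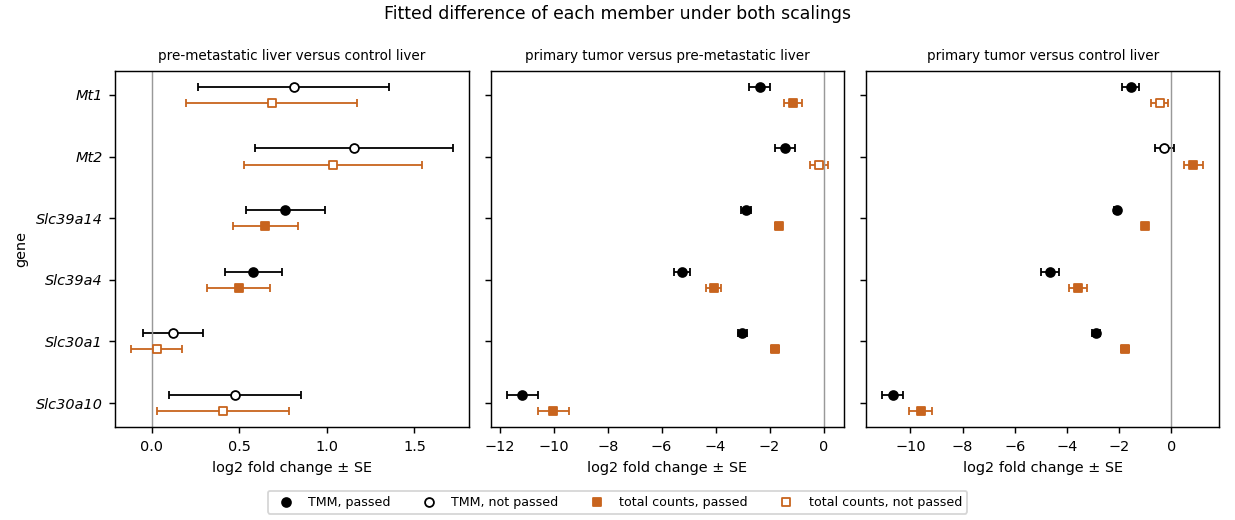
Log2 fold change ± SE of the 6 members in the 3 comparisons with TMM (black circles) and total-count (orange squares) scaling; filled symbols passed at adjusted p 0.05. Slc39a14 and Slc39a4 lay above 0 in pre-metastatic livers with both scalings, and Mt2 against control livers lay at -0.26 with TMM and 0.86 with total counts.

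The ratio of Mt1 to Mt2 within a library does not depend on scaling, and it separated tumors from livers. Per length, its median was 1.5 in control livers (1.11 to 2.24), 1.10 in pre-metastatic livers (0.764 to 1.51) and 0.608 in tumors (0.513 to 0.707). Per length, every tumor had less Mt1 than Mt2, as did 1 of the 14 livers, M4. The side of 1 rests on the gene lengths used, 760 bases for Mt1 and 556 for Mt2, but differences between groups do not. In counts, every tumor still had less Mt1 than Mt2, but liver M4 had more (30136 against 28862). The mean log2 ratio in tumors was 0.92 below that of pre-metastatic livers (exact two-sided permutation test, p = 4.11e-05, adjusted p = 0.000123 over 6 tests) and 1.32 below that of control livers (exact permutation, p = 0.0005, adjusted p = 0.00075), and both p-values are the smallest the test can give. The first of these tests took tumors and livers of the same mice as unpaired. The larger p of a test within mice is given with the alternatives at the end. Between livers the difference in the log2 ratio was -0.41 (exact permutation, p = 0.043), which did not pass after adjustment (0.052), and -0.24 in the low clock set (exact permutation, p = 0.32).

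**Figure D5:**
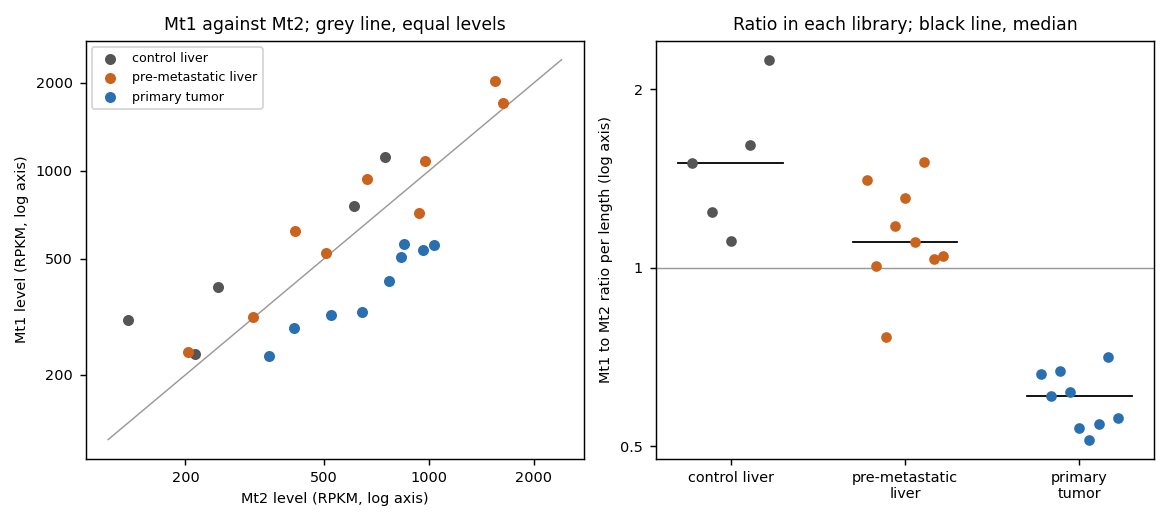
Left, Mt1 against Mt2 level (RPKM, log axes) in 23 libraries with a grey line of equal levels; right, their ratio per length in each library (log axis) with the median as a black line. All 9 tumors lie below a ratio of 1, at 0.513 to 0.707, with no overlap with the livers.

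The importer to exporter ratio of Slc39a14 to Slc30a10 was, among livers, highest in the pre-metastatic livers of the high clock set. In control livers it had a median of 3.28 (3.02 to 4.66), and in pre-metastatic livers it was 4.74 in M2, 9.04 in M12, 9.88 in M1 and 13.3 in M10, the high clock set, and 1.85 in M5 to 4.62 in M6 in the low set. The mean log2 ratio differed by 0.45 (exact permutation, p = 0.37), and by -0.16 in the low set (p = 0.61, exact permutation). In tumors, with 0.5 added to each count, it was 448 to 9850 and did not overlap with the livers.

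Within tumors, Mt1 and Mt2 varied together as in the livers, with r of 0.962 and rho of 0.950 (exact permutation test, p = 3.03e-05 and 0.000353, adjusted p = 0.00091 and 0.0053), and r of 0.928 without the 2 tumors farthest from the median. No other relation passed among tumors. The next by r or rho were Mt2 with Slc39a14 (r = 0.764, rho = 0.783, exact permutation p = 0.0089 and 0.017, adjusted p = 0.067 and 0.10), Mt2 with Slc39a4 (r = -0.731, rho = -0.800, exact permutation p = 0.028 and 0.014, adjusted p = 0.11 and 0.10) and Mt1 with Slc39a4 (r = -0.768, rho = -0.700, exact permutation p = 0.020 and 0.043, adjusted p = 0.10 and 0.16). Without the 2 tumors farthest from the median, r was 0.591, -0.490 and -0.575. M4, with the least Mt1 and Mt2 of the tumors, had the most Slc39a4, and M6, with the most Mt2, had the least. Neutrophil markers were lowest in M4 (6.48 RPKM) and highest in M1 (248), the tumor with the most Mt1. This order did not hold throughout, since M12 had 23.4 RPKM of them with 535 of Mt1, and M8 had 172 with 418. The part of neutrophils was not tested.

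A mouse with a high level of a member in the liver was not shown to have a high level in its tumor. Over 9 mice, r was 0.402 for Mt1, 0.298 for Mt2, 0.579 for Slc39a14, -0.198 for Slc39a4, -0.225 for Slc30a1 and -0.697 for Slc30a10, with rho of 0.517, 0.433, 0.567, -0.117, -0.100 and -0.746. None of the 6 passed after adjustment (exact permutation, adjusted p of r from 0.23 to 0.63). For Slc30a10 the exact permutation p was 0.039 before adjustment, but 3 tumors were at 0 counts, and r was -0.254 with values centered within the clock sets and -0.509 without the 2 mice farthest from the median.

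Some other zinc importers and an exporter were higher in tumors than in livers with either scaling. Slc39a6 (ZIP6) was at 18.4 to 25.3 RPKM in tumors and at most 1.38 in livers, Slc39a10 (ZIP10) at 7.17 to 16.4 and at most 0.746, and Slc30a4 (ZnT4) at 44.9 to 70.8 and at most 3.46. Their log2 changes against pre-metastatic livers were 3.50 ± 0.15, 3.25 ± 0.23 and 3.15 ± 0.11. Slc39a8 (ZIP8) was at 0.369 to 0.774 RPKM in tumors and 5.02 or more in livers, a change of -5.12 ± 0.19. Slc39a5 (-2.38 ± 0.32) and Slc39a2 (-4.50 ± 0.41) fell too, from levels of 1.32 RPKM or less. Mt4 was at 0 in all 14 livers and at 0.0361 to 1.27 RPKM in tumors, 27 counts at most, and Mt3 reached 2.26 RPKM and did not pass with TMM (1.47 ± 0.87, edgeR adjusted p = 0.12) but did with total counts (2.64).

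Of the 12 other ZIP genes, 4 were higher and 7 lower in tumors than in pre-metastatic livers with TMM, and 7 higher and 4 lower with total counts. Of 7 tested ZnT genes, 1 was higher and 5 lower with TMM, and 5 higher and 1 lower with total counts. Over all 19749 genes tested, 43.8% were higher and 39.5% lower with TMM, and 67.6% higher and 21.3% lower with total counts. Genes such as Mtf1 (-0.70 with TMM, 0.48 with total counts) and Slc39a1 (-0.95 and 0.23) passed in opposite directions, while Slc39a6, Slc39a10, Slc39a12, Slc39a13 and Slc30a4 were higher and Slc39a2, Slc39a5, Slc39a8, Slc39a9 and Slc30a3 lower with both. Among other metal handlers, the copper exporter Atp7b (-10.26 ± 0.30) and the iron exporter Slc40a1 (-6.76 ± 0.47) fell in tumors and the copper transporter Atp7a (1.51 ± 0.13) rose, again with edgeR at adjusted p under 0.05. Of the acute-phase list, 0 rose and 16 of 18 fell with TMM (2 rose and 15 fell with total counts).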

How the data were processed

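Poly(A) RNA of 23 libraries was sequenced by the authors. Per the labels, NEBNext Ultra kits were used, and the submitters' processing notes name HISAT2, HTSeq 0.6.0 and mm10. The annotation is not given in the sources used here. The deposited table holds raw read counts per gene and the authors' RPKM values. RPKM recomputed from the deposited counts, gene lengths and total counts differed by a relative error of at most 1.75e-06. Of 48897 rows, 2 symbols occurred in duplicate and were summed. Values rest on 44587556 to 79773163 counts per library, and floors and intervals cover counting error only. Mice were taken as replicates.

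Counts were fitted with edgeR 4.0.16 (quasi-likelihood, TMM, R 4.3.3) separately for each pair of groups, without a block because the study tested groups as unpaired, after genes had been required to reach 10 counts in 5 or more libraries. Calls were made at a Benjamini-Hochberg adjusted p under 0.05 over all genes tested, two-sided. The fitting code was tested on simulated data. Tumor and pre-metastatic liver are paired because the same animal gave both. Ratios and correlations, the latter on log2(RPKM + 1), were tested by exact permutation, and 0.5 was added to each count for ratios. Levels in RPKM follow total counts, not TMM. Alternatives were DESeq2 1.42.0, upper-quartile factors, total counts, no low-count filter, each library or mouse left out, a replicate block, the clock index as a covariate and livers of low index alone. Tumors M6, M10 and M12 were left out as an alternative added after the data were seen. The 3 comparisons share samples. Genes named were the 6 members, up to 3 genes per direction with the largest calls of each list, Mtf1, Mt3, Mt4, Slc39a8 and Slc39a5, and the 5 genes most correlated with Mt1, Mt2 and Slc39a14 over the livers. Other genes named beside them (such as Slc39a9, Slc39a12, Slc39a13, Slc30a3 and Krt20) were chosen after their values were seen. The members and lists were chosen with earlier results of these data known. Promoter windows came from RefSeq for 4 of the 6 members, and motif positions count back from the RefSeq start.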

Additional observations from a re-analysis of the deposited data

Results flagged for a closer look

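Of 18 sets of values, 6 members in 3 groups, 2 held a sample whose gap to its neighbor was large for the range of its group by Dixon's test, which by chance marks about 1 set in 20. Liver M5 was the highest of 9 pre-metastatic livers for Slc39a4, at 22.17 RPKM, where the next was M10 at 17.3 RPKM. Liver M6 was the highest of the same 9 for Slc30a1, at 15.01 RPKM, where the next was M2 at 10.03 RPKM. M6 was also the highest for Mt1 and Slc39a14 and held the most hepatocyte marker RNA (67320 RPKM), and M5 held the least (33240 RPKM), and the part of that RNA was not tested.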

How the results depend on the processing

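Of 324 refits of single members, 315 kept their direction and their side of the threshold, 4 lost a call, 2 gained one and 3 turned. Calls were lost by Slc39a14 between livers without C5 (0.66), by Slc39a4 in the low clock set (0.59), and with total counts by Mt2 against pre-metastatic livers (-0.18) and Mt1 against control livers (-0.44). Slc30a10 gained a call between livers with the clock covariate (0.73) and in the low clock set (0.92). Slc30a1 turned between livers without M6 (-0.017, in a range up to 0.20 with other livers left out), and Mt2 turned against control livers with total counts (0.86) and without C1 (0.14, the top of a range from -0.51). The cause was not tested. Leaving out a library gave 4271 to 5284 genes (25.3% to 31.5% of those tested) and 1 to 2 members called between livers. Total counts moved the higher share of calls between livers from 57.1% to 46.0%.

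The difference in the log2 ratio of Mt1 to Mt2 between livers was -0.24 in the low clock set and lay between -0.51 and -0.26 with a library left out, where the exact permutation p missed 0.05 in 9 of 14 cases. That of Slc39a14 to Slc30a10 was -0.16 in the low clock set. With the replicate block, justified by the shared animal, all 6 members were called lower in tumors against pre-metastatic livers. In that fit 16329 of 19749 genes were called, 82.7% in all and 38.8% as lower. Sign flips within mice gave an exact p of 0.0039 for both ratios, the smallest possible. No call of a member or ratio thus changed. Of the correlations among members, 3 of 30 passed, and 0 passed without the 2 mice farthest from the median, where 7 remain. Depth limits Slc30a10, Mt3 and Mt4 in tumors, which rest on at most 68 counts per library.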
